A study of Mus musculus with 6 samples.

Results

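Nitric oxide, endothelin and prostaglandins are the short-range signals by which vessel walls set their tone, and this section describes the 10 genes that stand for them here: the nitric oxide synthases *Nos2* and *Nos3*, the endothelin genes *Edn1*, *Ednra*, *Ednrb* and *Ece1*, and the prostaglandin enzymes *Ptgs1*, *Ptgs2*, *Ptgis* and *Ptges*. They were picked by name, all 10 were found among the 34745 genes of the expression table, and all 10 were among the 14084 genes with enough counts to be tested. The libraries came from cardiac fibroblasts of the left ventricle, taken on Day 7 after myocardial infarction (MI), which was made in male mice of 8 to 10 weeks by tying off the left anterior descending (LAD) coronary artery for good. The 3 libraries labelled KO are from KDM5B-KO mice, in which CRISPR/Cas9 removed a stretch of *Kdm5b* with the JmjC domain of this histone H3K4 demethylase and shifted the reading frame, with no restriction to a cell type, and the 3 labelled WT are from littermate WT mice with the same infarct. How many mice went into a library, whether the cells of these libraries were cultured first and whether they were sorted is not given in the sources used here, so the p-values measure the spread between these libraries, which may be technical.

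In vessels, *Nos3* makes the nitric oxide of endothelial cells, which relaxes smooth muscle through guanylate cyclase and cyclic GMP, while *Nos2* is the form that inflammatory signals switch on. Endothelin 1 is cut from its precursor by the converting enzyme of *Ece1* and binds a receptor on smooth muscle cells and fibroblasts (*Ednra*) or one that endothelial cells also carry (*Ednrb*). Cyclooxygenases, the products of *Ptgs1* and the inducible *Ptgs2*, turn arachidonic acid into prostaglandin H2, from which *Ptgis* makes prostacyclin and *Ptges* prostaglandin E2.

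The libraries held between 12025403 and 15329427 counts on genes, and replicates of a label had a biological coefficient of variation of 10.9%. The mRNA of *Kdm5b* itself differed too little to pass (log2 fold change -0.22, edgeR adjusted p = 0.0574), although it passed in 3 of 15 alternatives, so the groups are called by their labels throughout. The paper reports that *Kdm5b* mRNA, by Q-PCR, and KDM5B protein were nearly absent from cardiac fibroblasts of KDM5B-KO mice. Counts here cover the whole gene, and the deleted stretch was not examined on its own. The authors' methods describe male mice for the MI surgery, yet both *Xist*, an RNA of the inactive X chromosome in females, and the Y-linked *Ddx3y* were counted in every library, at no less than 90.5 and 64.5 CPM (counts relative to library size, scaled by edgeR's TMM factors). Fibroblast markers were abundant, with a summed FPKM (fragments relative to gene length and library size) of 3155 to 3639.9 in the libraries labelled KO and 4312 to 4581 in those labelled WT, and 11 of 11 fell, with a median log2 fold change of -0.40. Markers of other cells were present too. Of the 16 endothelial markers none was at 0 in all libraries, 13 rose and 3 did not pass (*Cldn5*, *Ptprb* and *Sox17*, picked out with their values in view), and the summed FPKM of the 16 was 270.4 to 379.9 in the libraries labelled KO against 72.5 to 73.3. Macrophage markers (825 to 853 against 1015 to 1097 FPKM in sum, 6 lower and 1 higher of 10), cardiomyocyte markers (216 to 228 against 262 to 267 FPKM, 6 of 10 lower), mural cell markers (87.5 to 97.6 against 120.3 to 123 FPKM, 4 lower and 1 higher of 7 tested) and mesothelial markers (151 to 171 against 206 to 209.5 FPKM, 5 of 5 lower) had medians from -0.42 to -0.38 on the log2 scale. Of 6 mast cell markers, *Cpa3*, *Tpsb2* and *Fcer1a* were at 0 in all libraries, *Cma1* and *Mcpt4* were too low to be tested, and *Kit*, with 144 to 241 counts, did not pass (log2 fold change -0.33). Of 4 endocardial markers 1 fell and 3 did not pass. In RNA of many cells, fewer cells of a type and less RNA per cell cannot be told apart.

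Of the 10 genes, 4 rose (*Nos2*, *Nos3*, *Ece1* and *Ptgs2*), 3 fell (*Edn1*, *Ptgis* and *Ptges*) and 3 (*Ednra*, *Ednrb* and *Ptgs1*) did not pass an adjusted p under 0.05 in edgeR's quasi-likelihood test. Of all 14084 genes tested, 17.7% rose and 12.5% fell by the same rule. Under a scaling that sets the cardiomyocyte and macrophage markers level in all libraries, 5 of the 10 rose and 1 fell, since this scaling moves the median log2 fold change of all genes from -0.02 to 0.34, and 7996 genes then rose and 74 fell in place of 2488 and 1760. Without KO replicate 3 a single member (*Ptgis*) still fell. In 7 of the 10 genes the CPM values of the labels were fully separate, as was the case for 47.0% of all genes tested. An exact two-sided permutation test on a single gene cannot go below p = 0.1 with 3 libraries against 3, and it reached 0.1 in these 7 genes.

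**Figure D1:**
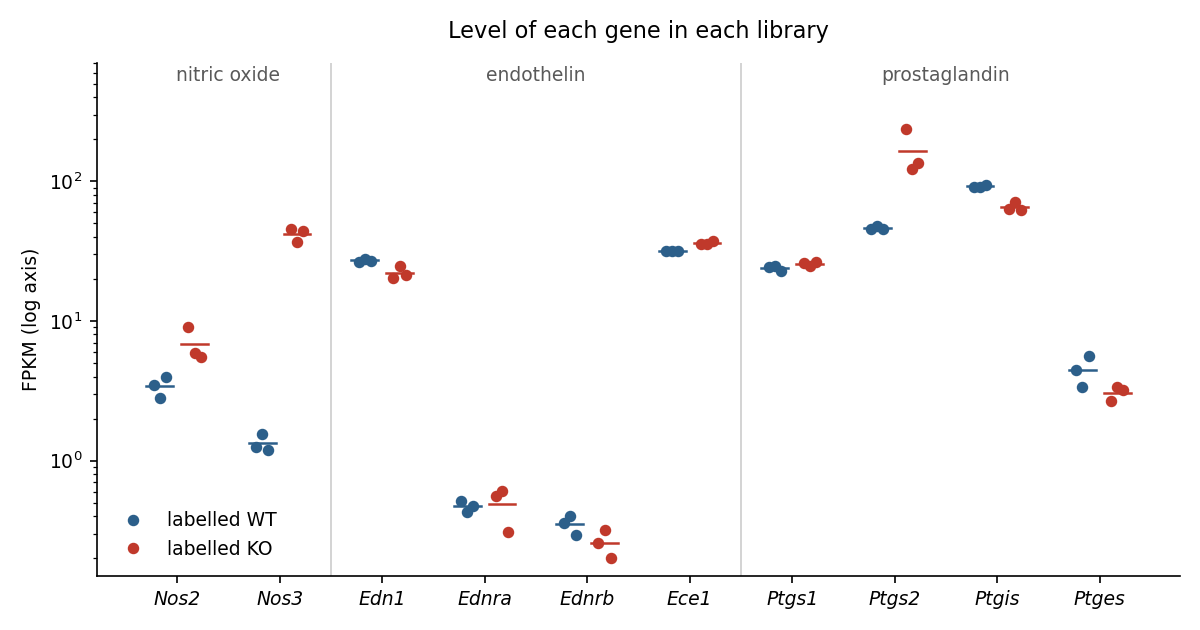
FPKM of the 10 genes in each library on a log axis, with points for the 3 libraries labelled WT (blue) and the 3 labelled KO (red) and a line at their mean. *Nos3* has the widest gap, from between 1.19 and 1.55 to between 37.0 and 45.3 FPKM, while the labels overlap in *Ednra*, *Ednrb*, *Ptgs1* and, by a small margin, *Ptges*.

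*Nos3* rose from one of the lower levels among the tested genes to one of the higher ones, and *Nos2* rose 1.95-fold. *Nos3* (ENSMUSG00000028978, chromosome 5 from 24364810 to 24384474, plus strand, mm10) had 45.3, 37.0 and 43.7 FPKM in the libraries labelled KO and 1.25, 1.55 and 1.19 FPKM in those labelled WT. All 3 libraries labelled KO were far above all 3 labelled WT, and the mean level passed 93.3% of the tested genes in the former and 25.7% in the latter. This is a 30.8-fold difference, or 4.94 on the log2 scale with a standard error of 0.12 and a 95% interval from 4.67 to 5.22 (edgeR adjusted p = 1.2e-06). No other gene of the 14084 had a smaller p, while by the size of the fitted rise *Nos3* ranked 90. Over the 15 alternative fits its adjusted p was at most 4.4e-05. Its last 294 bases lie over the end of *Atg9b*, an autophagy gene on the minus strand with 115 to 140 counts in the libraries labelled KO and 33 to 41 in those labelled WT, where *Nos3* had 2233 to 3050 and 77 to 105 counts. *Atg9b* rose as well (log2 fold change 1.84), and whether the counting used the strand is not stated, although the library kit keeps it, so reads of the shared bases may be placed on either gene.

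The rise of *Nos3* was larger than that of any of the 16 endothelial markers, whose log2 fold changes ran from -0.82 to 4.23. *Pecam1*, which encodes the adhesion molecule CD31, had 81.5, 57.6 and 71.4 FPKM against 4.68, 4.43 and 3.93, and *Cdh5*, the cadherin of endothelial junctions, had 117, 77.9 and 91.5 FPKM against 17.9, 19.7 and 18.8. Set against the summed FPKM of the 16 markers, *Nos3* stood at 11.9%, 13.7% and 13.9% in the libraries labelled KO and at 1.71%, 2.12% and 1.64% in those labelled WT, with no overlap. This share was computed after the values were seen and is given without a test. The markers moved with *Nos3* between the labels, and their part in its level was not tested.

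*Nos2* (ENSMUSG00000020826, chromosome 11 from 78920787 to 78960254) had 8.99, 5.92 and 5.52 FPKM in the libraries labelled KO and 3.45, 2.79 and 3.95 FPKM in those labelled WT. The labels did not overlap, and KO replicate 1 stood above the other two. On the log2 scale the difference was 0.96 with a standard error of 0.20 (edgeR adjusted p = 0.00821). It came to 0.73 without KO replicate 1, and over the alternatives the adjusted p was at most 0.0300. The summed FPKM of the neutrophil markers moved in the same direction, with 9.64, 6.09 and 6.48 against 2.03, 1.08 and 1.70. Of the 3 that could be tested, 2 were higher (*S100a8*, at 4.83 against 0.587 FPKM on average, and *S100a9*). The other, *Csf3r*, was lower without passing the threshold (log2 fold change -0.41). The remaining 4 of 7 were too low to be tested. Of these, *Cxcr2*, *Retnlg* and *Mpo* had lower means under the KO label and *Ly6g* a higher one. The macrophage marker sum was lower under the KO label. The part of either cell type in *Nos2* was not tested.

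With these changes the order of the synthases turned over. *Nos3* was at 0.362, 0.556 and 0.301 times the FPKM of *Nos2* under the WT label and at 5.04, 6.25 and 7.92 times under the KO label. The log2 ratio, with 0.1 FPKM added to each gene, was -1.29 ± 0.43 (SD, n = 3) and 2.64 ± 0.32, a difference of 3.92 (p = 0.1 in an exact two-sided permutation test, which cannot give less here).

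**Figure D2:**
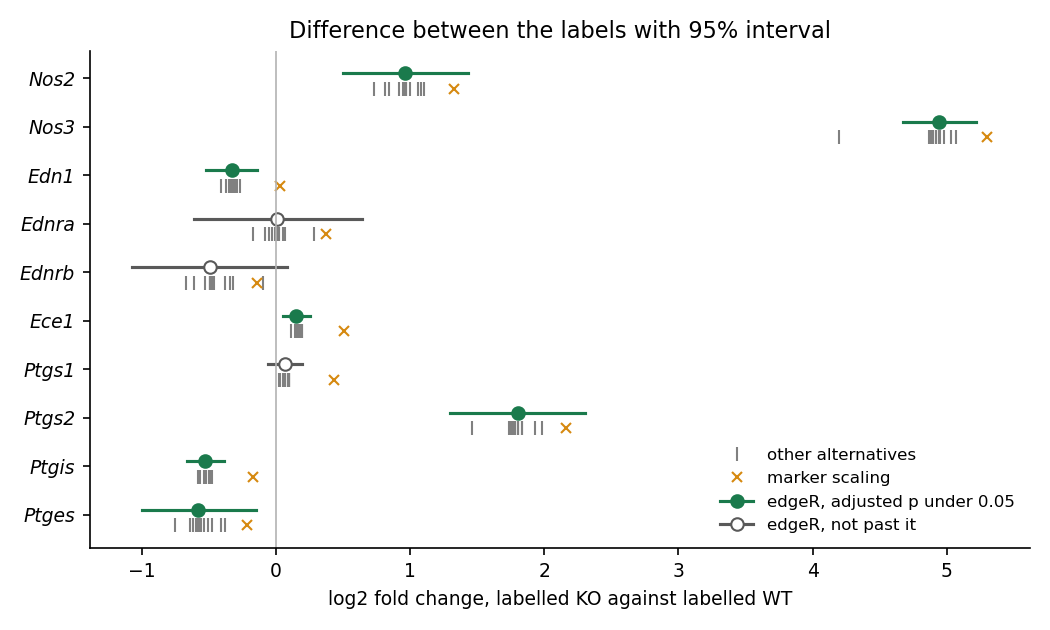
Log2 fold change of each gene between the labels, with the 95% interval of the edgeR fit (circles, filled where the adjusted p is under 0.05), and below it the value under each alternative (ticks, and a cross for the marker scaling). *Nos3* at 4.94 and *Ptgs2* at 1.80 stand apart, the cross of *Edn1* lies at 0.03, and the intervals of *Ednra*, *Ednrb* and *Ptgs1* reach across 0.

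In the endothelin group the ligand gene fell slightly, the converting enzyme rose slightly, and the receptors were low in every library. *Edn1* (ENSMUSG00000021367, chromosome 13 from 42301270 to 42307989) had 20.4, 24.6 and 21.2 FPKM in the libraries labelled KO and 26.6, 27.8 and 27.0 FPKM in those labelled WT. The groups lay close to each other without overlap, with KO replicate 2 nearest to the libraries labelled WT. *Edn1* thus stood at a log2 fold change of -0.33 with a standard error of 0.08 (edgeR adjusted p = 0.0167). The medians of the fibroblast, mural cell, mesothelial, macrophage and cardiomyocyte markers ran from -0.42 to -0.38. The call of *Edn1* was lost when KO replicate 3 was left out (-0.30, adjusted p = 0.0611) or WT replicate 2 (-0.31, adjusted p = 0.0579), and under the marker scaling the value was 0.03 (adjusted p = 0.793). *Edn1*, for which endothelial cells are the best known source, fell where 13 of 16 endothelial markers rose, and its level was 36.6%, 37.9% and 37.3% of their summed FPKM under the WT label and 5.36%, 9.11% and 6.75% under the KO label. This share was also computed with the values in view, it moves mainly with the 4.41-fold higher marker sum, and the part of endothelial cells in *Edn1* was not tested.

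*Ece1* (ENSMUSG00000057530, chromosome 4 from 137862237 to 137965229) varied little within a label, with 31.5, 31.6 and 31.8 FPKM in the libraries labelled WT and 35.5, 35.6 and 37.1 FPKM in those labelled KO. The 3 libraries labelled KO were all higher. The difference was 1.11-fold (log2 fold change 0.15, 95% interval 0.05 to 0.25, edgeR adjusted p = 0.0295). In 7 of the 15 alternatives the adjusted p was above the threshold, among them the fits without KO replicate 3 (0.0870), WT replicate 1 (0.0863), WT replicate 2 (0.0898) and WT replicate 3 (0.0761), and the marker scaling raised the value to 0.51. Within *Ece1*, the gene *Gm13012* on the other strand had at most 9 counts.

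The receptor genes were the lowest of the 10. *Ednra* (ENSMUSG00000031616, chromosome 8 from 77663031 to 77724464) had 0.557, 0.606 and 0.306 FPKM in the libraries labelled KO and 0.511, 0.428 and 0.470 FPKM in those labelled WT, which rest on 28 to 48 counts. KO replicate 3 was the lowest of all 6 libraries and KO replicates 1 and 2 the highest. The log2 fold change of *Ednra*, 0.01, had a 95% interval from -0.61 to 0.64, so differences within that range in either direction were not excluded. *Ednrb* (ENSMUSG00000022122, chromosome 14 from 103814625 to 103844173) had 0.256, 0.316 and 0.201 FPKM against 0.358, 0.404 and 0.294, from 22 to 43 counts. A single library labelled KO reached into the range of those labelled WT, and the value of -0.49 on the log2 scale did not pass (95% interval -1.07 to 0.08, edgeR adjusted p = 0.176). *Ednra* stood at 2.18, 1.92 and 1.53 times the FPKM of *Ednrb* under the KO label and at 1.43, 1.06 and 1.60 times under the WT label. The log2 ratio differed by 0.36 between the labels, which overlapped (exact two-sided permutation test, p = 0.200).

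Among the prostaglandin genes, the inducible cyclooxygenase rose, its constitutive partner did not pass the test, and the prostacyclin and prostaglandin E synthases fell. *Ptgs2* (ENSMUSG00000032487, chromosome 1 from 150100031 to 150108227) had 236, 123 and 135 FPKM in the libraries labelled KO and 45.5, 48.0 and 45.2 FPKM in those labelled WT. Each library labelled KO was far above any labelled WT, and KO replicate 1 was the highest by far. The rise was 3.48-fold, or 1.80 on the log2 scale with a 95% interval from 1.30 to 2.30 (edgeR adjusted p = 6.4e-04). When KO replicate 1 was left out it came to 1.46 (adjusted p = 5.7e-06), and no alternative gave an adjusted p above 0.00492. KO replicate 1 also had the highest summed endothelial and neutrophil markers of the 6 libraries, at 379.9 and 9.64 FPKM. Set against the endothelial sum, *Ptgs2* stood at 62.2%, 45.6% and 42.9% under the KO label and at 62.4%, 65.4% and 62.4% under the WT label, again computed with the values in view. The part of these cells in *Ptgs2* was not tested.

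*Ptgs1* (ENSMUSG00000047250, chromosome 2 from 36230426 to 36252272) had 26.2, 24.6 and 26.5 FPKM in the libraries labelled KO and 24.3, 24.9 and 22.9 FPKM in those labelled WT, with overlap. Its log2 fold change was 0.07 (95% interval -0.06 to 0.19, edgeR adjusted p = 0.399), and it passed the threshold only under the marker scaling, at 0.43. *Ptgs2* stood at 9.03, 5.03 and 5.10 times the FPKM of *Ptgs1* under the KO label and at 1.87, 1.93 and 1.98 times under the WT label. The log2 ratio was 2.61 ± 0.48 (SD, n = 3) against 0.94 ± 0.04, a difference of 1.67 without overlap (p = 0.1 in an exact two-sided permutation test).

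Because these paralogs make the same product and differed in their response, their promoters are shown beside that of *Edn1*, a member that fell. The sequences are those of RefSeq in GRCm38.p6, from 250 bases before to 50 bases after the annotated start, written 5′ to 3′ on the plus strand, and 7 of the 10 genes had such an entry, while *Nos2*, *Nos3* and *Ptgis* had none. Capitals mark matches on either strand to 6 of the 9 motifs searched. These are the core of an Sp1 site, GGGCGG. The E-box searched was CACGTG. The Ets-like letters were AGGAAG. The box known by its letters CCAAT was searched as such. The Klf-like letters were CACCC. The Gata-like letters were AGATAA.
Ptgs2, chr1:150099781-150100080: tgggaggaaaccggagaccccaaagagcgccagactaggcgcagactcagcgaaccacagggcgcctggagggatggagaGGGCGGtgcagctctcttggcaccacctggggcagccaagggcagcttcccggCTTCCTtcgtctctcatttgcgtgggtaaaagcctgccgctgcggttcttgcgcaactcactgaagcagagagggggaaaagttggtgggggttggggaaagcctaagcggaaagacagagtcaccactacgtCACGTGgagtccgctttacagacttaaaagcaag
Ptgs1, chr2:36230176-36230475: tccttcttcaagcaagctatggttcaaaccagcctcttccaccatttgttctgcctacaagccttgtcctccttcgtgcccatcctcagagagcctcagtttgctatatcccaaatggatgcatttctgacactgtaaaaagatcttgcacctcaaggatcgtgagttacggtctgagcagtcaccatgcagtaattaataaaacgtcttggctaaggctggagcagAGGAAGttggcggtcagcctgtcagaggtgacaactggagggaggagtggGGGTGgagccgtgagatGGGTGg
Edn1, chr13:42301226-42301525: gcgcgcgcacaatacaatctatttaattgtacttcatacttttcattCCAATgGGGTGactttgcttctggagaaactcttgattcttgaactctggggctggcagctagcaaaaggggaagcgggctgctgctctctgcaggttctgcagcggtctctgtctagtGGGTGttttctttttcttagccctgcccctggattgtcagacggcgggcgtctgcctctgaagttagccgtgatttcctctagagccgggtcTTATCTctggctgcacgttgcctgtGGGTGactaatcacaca

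The *Ptgs2* window held the Sp1 core 170 bases before the start, the reverse complement of the Ets-like letters 117 bases before it and the E-box 16 bases after it. Of all 32851 promoter windows of this length 35.7% held the Sp1 core, 35.4% the Ets-like letters and 7.15% the E-box. In the *Ptgs1* window the Ets-like letters lay 23 bases before the start and the reverse complement of the Klf-like letters (57.5% of all windows) 27 and 44 bases after it. The *Edn1* window had the letters CCAAT (37.4%), the Klf-like letters in reverse complement and, 8 bases after the start, the Gata-like letters in reverse complement (11.2%), which no window of the other 6 genes held. These positions count from the RefSeq start. For *Edn1* that start lies inside the gene as given above, whose first base, 42301270, is near the beginning of the window. A TATA box, searched as TATAAA, was in 13.6% of all windows but in no window of these 7 genes. Sequence outside the windows was not searched. The cyclic AMP element, searched as TGACGTCA, was in 1.79% and likewise in none of them. The AP-1 letters TGACTCA were in 5.20% and also in none. Such matches describe letters and do not show binding.

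*Ptgis* (ENSMUSG00000017969, chromosome 2 from 167191805 to 167240604) was the highest of the 10 genes in the libraries labelled WT, with 91.5, 91.4 and 93.7 FPKM, and had 63.7, 70.8 and 61.9 FPKM in those labelled KO. There was a clear gap between the labels. In the fit *Ptgis* had a log2 fold change of -0.53 with a 95% interval from -0.66 to -0.39 (edgeR adjusted p = 4.4e-04). The medians of the fibroblast, mural cell, mesothelial, macrophage and cardiomyocyte markers ran from -0.42 to -0.38. *Ptgis* remained below 0 in every alternative, and was -0.17 under the marker scaling (adjusted p = 0.0266).

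*Ptges* (ENSMUSG00000050737, chromosome 2 from 30889471 to 30929863) had 2.66, 3.36 and 3.19 FPKM in the libraries labelled KO and 4.47, 3.34 and 5.64 FPKM in those labelled WT. WT replicate 2 lay among the libraries labelled KO in FPKM, while in CPM it was just above them at 17.8 against 17.6 in KO replicate 2. Its fall was just past the threshold, at -0.58 on the log2 scale with a standard error of 0.19 (edgeR adjusted p = 0.0476), and 10 of the 15 alternatives no longer passed the threshold. Leaving out KO replicate 1, KO replicate 2, KO replicate 3, WT replicate 1 or WT replicate 3 each ended the call, with an adjusted p from 0.0643 to 0.136. *Ptgis* stood at 24.0, 21.1 and 19.4 times the FPKM of *Ptges* under the KO label and at 20.5, 27.4 and 16.6 times under the WT label, so the balance of the synthases overlapped between the labels (difference of the log2 ratio 0.01, exact two-sided permutation test, p = 0.900).

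By FPKM, which allows a comparison between genes, the order in the libraries labelled WT was *Ptgis* (92.2 on average), *Ptgs2* (46.2), *Ece1* (31.7), *Edn1* (27.1), *Ptgs1* (24.0), *Ptges* (4.48), *Nos2* (3.40), *Nos3* (1.33), *Ednra* (0.470) and *Ednrb* (0.352). Of these neighbours, the libraries of *Ptges* and *Nos2* overlapped. In the libraries labelled KO the order was *Ptgs2* (165), *Ptgis* (65.5), *Nos3* (42.0), *Ece1* (36.1), *Ptgs1* (25.7), *Edn1* (22.1), *Nos2* (6.81), *Ptges* (3.07), *Ednra* (0.490) and *Ednrb* (0.257). Here *Nos3* overlapped with *Ece1*, *Ptgs1* with *Edn1*, and *Ednra* with *Ednrb*. *Nos3* moved from the eighth place to the third, and the receptors kept the last places in both labels.

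**Figure D3:**
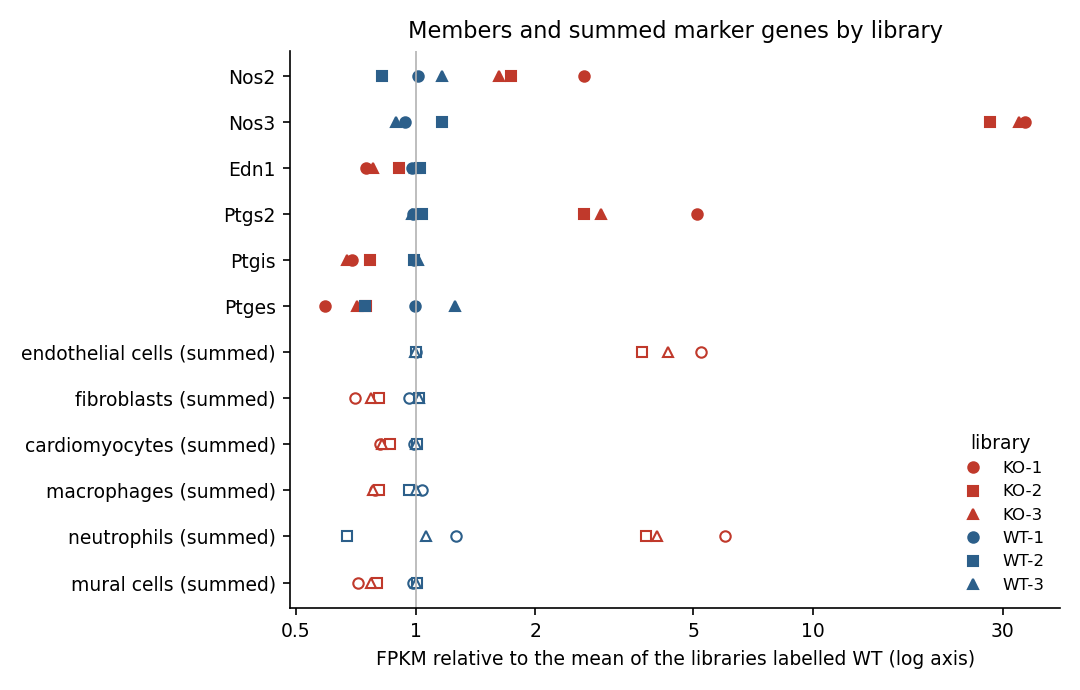
FPKM in each library relative to the mean of the libraries labelled WT on a log axis, for 6 of the genes (filled) and for summed marker genes of 6 cell types (open), with circles, squares and triangles for replicates 1, 2 and 3. *Nos3* lies to the right of the endothelial sum, and *Ptgs2* and *Nos2* are highest in KO replicate 1. In the libraries labelled KO, *Edn1* and *Ptgis* lie to the left of 1, as do the macrophage, fibroblast, cardiomyocyte and mural sums.

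Of 24 other genes of the nitric oxide pathway, 23 could be tested, and 4 rose, 5 fell and 14 did not pass, with a median log2 fold change of -0.05 beside -0.02 for all genes tested. Over all genes tested 17.7% rose and 12.5% fell, and the shares in this list and in the endothelin and prostanoid lists were not tested against these. Under the marker scaling 11 of the 23 rose and 0 fell, where 7996 of all 14084 genes tested rose and 74 fell. The 4 that rose were the cofactor genes *Gch1*, *Gchfr* and *Qdpr* and the synthase-binding gene *Nostrin*. *Gch1*, the first enzyme in making tetrahydrobiopterin, the cofactor of nitric oxide synthases, had 20.4, 17.8 and 17.4 FPKM in the libraries labelled KO and 11.4, 11.1 and 11.4 FPKM in those labelled WT (log2 fold change 0.68, edgeR adjusted p = 4.4e-04). *Gchfr*, which encodes the feedback regulator of that enzyme, had 58, 33 and 44 counts against 1, 0 and 0, a ratio of 145 with an exact 95% interval from 25.5 to 5759.6 that covers counting error only. *Qdpr*, whose enzyme recycles the cofactor, had a log2 fold change of 0.41 (edgeR adjusted p = 0.0472) and kept its call in 1 of the 6 fits without a library, that without WT replicate 3. *Pts* and *Spr*, the other enzymes on the way to the cofactor, had values of 0.03 and 0.06 and did not pass. That these 3 are cofactor genes was noticed after their values were seen.

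*Nostrin*, whose protein traffics the endothelial synthase, had 1.67, 2.68 and 2.12 FPKM in the libraries labelled KO and 0.486, 0.875 and 0.633 FPKM in those labelled WT (log2 fold change 1.66, adjusted p = 0.00322 from edgeR). *Cav1*, which encodes the caveolar inhibitor of that synthase, varied widely within both labels and did not pass (log2 fold change 0.16, standard error 0.48). The 5 genes that fell were *Gucy1a3* and *Gucy1b3*, the subunits of the guanylate cyclase that senses nitric oxide, *Prkg1*, the kinase that cyclic GMP activates, *Pde5a*, which degrades cyclic GMP, and *Ass1*, which takes part in remaking arginine. Their log2 fold changes were -0.45, -0.47, -0.44, -0.40 and -0.46, beside medians from -0.42 to -0.38 for fibroblast, mural cell, mesothelial, macrophage and cardiomyocyte markers. *Gucy1a2*, a further cyclase subunit, *Prkg2*, a second such kinase, and *Vasp*, which these kinases phosphorylate, did not pass, with values of 0.08, -0.30 and 0.07. None of the 5 genes that fell passed under the marker scaling, where they ran from -0.11 to -0.04, and *Pde5a* lost its call in 9 of the 15 alternatives, among them DESeq2, both limma fits, the replicate block and the fits without KO replicate 1, KO replicate 2, WT replicate 1 or WT replicate 2.

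**Figure D4:**
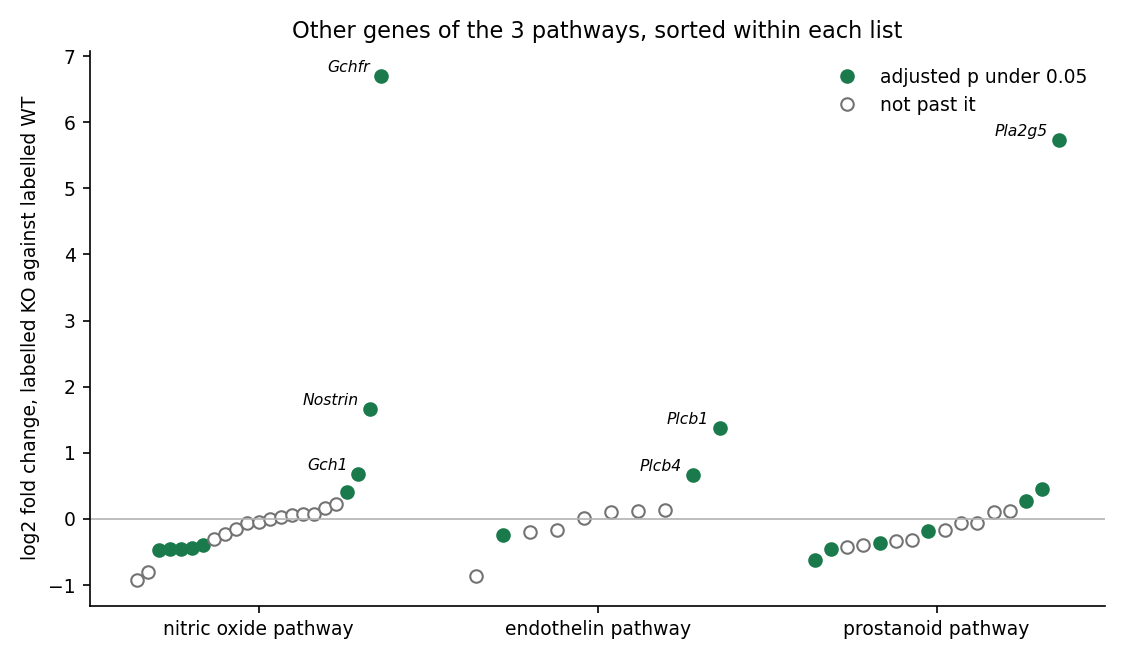
Log2 fold change between the labels of the other genes of each pathway that could be tested, sorted within each list and filled where the adjusted p is under 0.05, with names for the larger rises. Most genes lie within 1 of 0, and the fitted values of *Gchfr* and *Pla2g5* rest on counts of 0 or 1 in the libraries labelled WT.

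Of 12 other endothelin pathway genes, 10 could be tested, and 2 rose, 1 fell and 7 did not pass, with a median log2 fold change of 0.06. Under the marker scaling 6 of these 10 rose and 0 fell, beside 7996 and 74 of all 14084 genes tested. *Edn2* had no count in any library and *Edn3*, with a mean of 0.0147 FPKM in the libraries labelled KO and none in those labelled WT, was too low to be tested, so *Edn1* was the only endothelin gene at a level that could be tested. The phospholipase genes *Plcb4* (2.77 ± 0.249 against 1.70 ± 0.112 FPKM, SD, n = 3, log2 fold change 0.66) and *Plcb1* (log2 fold change 1.38, under 1 FPKM and outside the rule for named genes) rose. *Furin*, a protease that prepares the endothelin precursor for the converting enzyme, had 10.6 ± 0.291 against 12.2 ± 0.605 FPKM (SD, n = 3), a log2 fold change of -0.25 that became 0.11 under the marker scaling.

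Of the 21 other prostanoid genes, 16 could be tested, and 3 rose, 4 fell and 9 did not pass, with a median log2 fold change of -0.17. Under the marker scaling 6 of these 16 rose and 0 fell, again beside 7996 and 74 of all 14084 genes tested. *Slco2a1*, the transporter that takes prostaglandins up into cells, had 9.50, 8.84 and 9.25 FPKM in the libraries labelled KO and 6.25, 6.65 and 6.66 FPKM in those labelled WT (log2 fold change 0.46, adjusted p = 4.7e-04 from edgeR). *Abcc4*, an exporter of prostaglandins, had a value of 0.27 and kept its call in 1 of the 6 fits without a library, that without KO replicate 1. *Pla2g5*, a secreted phospholipase under 1 FPKM and outside the rule, had 32, 16 and 21 counts against 0, 0 and 1 (ratio 74.0, exact 95% interval 12.8 to 2964, again for counting error only).

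The 4 that fell were *Pla2g4a*, the phospholipase that frees arachidonic acid, *Ptger4*, a receptor of prostaglandin E2, *Hpgds*, a prostaglandin D synthase, and *Tbxas1*, the thromboxane synthase, with log2 fold changes of -0.18, -0.36, -0.62 and -0.45. These calls did not hold widely: DESeq2 called 0 of them, leaving out KO replicate 2 likewise 0, leaving out any other library 1, and under the marker scaling *Pla2g4a* stood at 0.18 and *Ptger4* at 0.00. *Ptgir*, the receptor of prostacyclin, had 1.06, 1.23 and 0.974 FPKM against 1.33, 1.06 and 1.63 and did not pass (log2 fold change -0.34, adjusted p = 0.206 from edgeR). The upstream enzyme *Ptgs2* and the uptake gene *Slco2a1* were thus higher, and *Ptgis* was lower, in these libraries under every alternative.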

How the data were processed

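RNA-seq of cardiac fibroblasts was analysed from 6 libraries, 3 labelled KO and 3 labelled WT, on Day 7 after MI. The authors mapped reads to mm10 with HISAT2, and the submitters' processing notes also name edgeR and GRCm38.p4 without a role. The counter, the annotation release and the strand setting are not given in the sources used here. The deposited counts are unnormalized whole numbers for each gene. In the deposited FPKM values the authors scaled them by gene length and library size, and the authors' methods base differential expression on them, with no test named.

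The test of the counts used edgeR 4.0.16 under R 4.3.3 (filterByExpr, TMM, glmQLFit, glmQLFTest, Benjamini-Hochberg over all 14084 genes tested, adjusted p under 0.05), with all 6 libraries and no covariate. Ratios of genes used FPKM + 0.1 and exact permutation tests over the libraries. A count of 0 allows up to 3 counts, or 0.249 CPM in the smallest library. Alternatives were DESeq2 1.42.0, limma 3.58.1 on log2(FPKM + 1) and log2(FPKM + 0.1), other filters and scalings, a replicate block and each library left out. The fits were tested on simulated data first.

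Members and lists were chosen with earlier results of these data known. One gene of the nitric oxide pathway list is not reported here and was left out of that list's counts. The named genes are all members, *Kdm5b*, 7 marker genes and, per pathway list, the 3 genes that rose most and the 3 that fell most among those called with a mean of at least 1 FPKM, and any other gene named (such as *Qdpr*, *Prkg1*, *Pde5a*, *Pts*, *Spr*, *Cav1*, *Gucy1a2*, *Prkg2*, *Vasp*, *Ptgir*, *Hpgds*, *Tbxas1*, *Plcb1*, *Pla2g5* and *Atg9b*) is outside this rule and was chosen after its values were seen. Replicates of a label differed by more than sampling noise (for 21.5% to 31.1% of genes a pair differed at an unadjusted 0.05 in a binomial test). TGACTCA and TGAGTCA are each other's reverse complement and were searched as 1 motif, and GGGCGG and CACCC can share letters. Figures were drawn with matplotlib 3.10.9.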

Additional observations from a re-analysis of the deposited data

How the results depend on the processing

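The directions of *Nos3*, *Nos2*, *Ptgs2*, *Ptgis*, *Ptges*, *Ednrb*, *Ece1* and *Ptgs1* were the same in all 15 alternative fits, and *Nos3*, *Nos2*, *Ptgs2* and *Ptgis* also passed the threshold in all of them. Scaling on cardiomyocyte and macrophage markers changed most: *Edn1* was at 0.03, *Ptgs1* at 0.43 (past the threshold), *Ptges* at -0.22, *Kdm5b* at 0.14, *Furin* at 0.11, *Pla2g4a* at 0.18, *Ptger4* at 0.00, *Pdgfra* at 0.04 and *Rgs5* at 0.04 on the log2 scale, 7996 genes were higher and 74 lower, and 1 of the 10 genes was lower. By construction, this scaling shifts all genes upward, and their median went from -0.02 to 0.34. A fold change above 2 in addition left 844 genes higher and 38 lower, and 2 and 0 of the 10. *Ednra*, near 0, changed sign with the upper quartile (-0.03) and the replicate block (-0.01), and ran from -0.17 to 0.28 without a library. *Ece1* lost its call without a filter (0.15), with DESeq2 (0.16) and with the upper quartile (0.11), and ran from 0.14 to 0.18 without a library. *Ptges* lost it with library size (-0.54), limma at both added values (-0.41 with 1 and -0.51 with 0.1) and the replicate block (-0.56), and ran from -0.75 to -0.38. *Edn1* ran from -0.41 to -0.27, lower genes from 1131 (without KO replicate 3) to 1614, and lower members from 1 to 2. The log2 ratio of *Nos3* to *Nos2* differed by 3.39 with 1 FPKM added, which shrinks ratios of low genes. The cause of the other changes was not tested.

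Same-numbered libraries hardly deviated together (correlations of 0.0168, 0.0172 and 0.0307, each the highest of its library, which is a hint from the data and not from the design), so the numbers were not taken as pairs. The replicate block gave 3907 calls in place of 4248 and, among the 10 genes, ended the call of *Ptges* alone. *Kdm5b* passed with the block (-0.21, edgeR adjusted p = 0.0271), the upper quartile (-0.26, adjusted p = 0.0324) and without WT replicate 1 (-0.29, adjusted p = 0.0188). Among the 10 genes, depth limits *Ednra* and *Ednrb* most, with 22 to 48 counts per library, and the 3 libraries per label limit every value.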
